A study of Drosophila melanogaster with 11 samples.

Results

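mtrm, fzr and Mos encode 3 regulators of the divisions that end oogenesis and start embryogenesis in Drosophila melanogaster. They were followed on 11 arrays as 3 of the 6793 genes that could be named, by taking every spot whose symbol in the probe table was one of these names. Each of the 3 genes had 2 spots. The probe table gives them the Entrez Gene numbers 38958 (mtrm), 45922 (fzr) and 36404 (Mos).

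Matrimony, the product of mtrm, binds and inhibits Polo kinase, which drives entry into division, and so helps to hold the oocyte in prophase until it matures. The product of fzr (fizzy-related, the fly Cdh1) is an activator of the anaphase-promoting complex or cyclosome (APC/C), the ubiquitin ligase that marks cyclins and other division proteins for destruction. Mos is a kinase at the head of the MAP kinase cascade of the oocyte, best known from vertebrate eggs, where it holds meiosis in arrest until fertilization. The transcripts of such genes are loaded into the egg by the mother. Egg activation starts the clearance of many maternal transcripts, in part through smaug (smg), an RNA-binding repressor, while fertilized embryos later add transcription of their own.

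Each array set 1 sample against RNA from stage 14 oocytes of the wild-type strain w1118, the last stage before the egg is laid. There were 4 arrays of w1118 embryos at 2 to 3 h, 4 arrays of smg material of that age, and 3 arrays of w1118 unfertilized eggs at 4 to 6 h. The labels name no smg allele. smg replicate 4 differs from the other 3 in that its source is given as SMGoverDf and not SMG. At 2 to 3 h the dyes were coupled indirectly, with Alexa Fluor 647 for the sample and Alexa Fluor 555 for oocytes. The unfertilized eggs were labelled directly, with Cy3 for the sample and Cy5 for oocytes. No array of a group had its dyes swapped, so the part of a dye bias in any comparison with oocytes was not tested. Nothing in the labels says whether the arrays of a group came from separate collections, so the p-values measure only the spread between arrays.

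Values below are log2 ratios of a gene to oocyte RNA after subtraction of the median over genes of the same array, so that 0 is the median gene. The deposited table does not state the numerator, and sample over oocyte was taken as likely because yolk protein transcripts lay below the median on all 11 arrays and blastoderm transcripts above it in wild-type embryos. A ratio to bulk RNA cannot tell fewer transcripts per egg from a changed amount of all other RNA. A gene was called when its Benjamini-Hochberg adjusted p over all genes tested, from limma, was under 0.05.

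Some arrays stood apart. Wild-type embryo replicate 1 and smg replicate 1 held values for 48.9% and 51.1% of spots and had deposited medians of -4.01 and -4.43, against 75.0% to 99.1% of spots and medians between -0.37 and 0.16 on the others. These arrays correlated with each other across genes at r = 0.79, above the r of either with any other array of its own group. smg replicate 3 correlated across genes at r = -0.51 with smg replicate 1 and r = -0.34 with smg replicate 2, but at r = 0.76 with smg replicate 4. smg replicate 4 in turn correlated at r = -0.17 and r = -0.12 with smg replicates 1 and 2, and at r = -0.18 to -0.10 with the unfertilized-egg arrays. On smg replicate 3 the median of 3 yolk protein transcripts was -1.75 and that of 14 blastoderm transcripts 0.74, on the same side of 0 as on the other arrays at 2 to 3 h, so a turned sign would put both on the other side. These markers and the correlations bear in different ways on the direction of this array, which was kept as deposited. For mtrm, fzr and Mos the smg differences from oocytes, wild-type embryos and unfertilized eggs are also given under the turned sign. The smg transcript itself was at -2.66, -1.18, 2.02 and 0.21 in smg replicates 1 to 4 and between -2.60 and -0.77 in wild-type embryos. The position of its spots relative to the lesion is not given, so this checks no label.

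In unfertilized eggs all 3 genes lay below the median on all 3 arrays. For mtrm the values were -2.22, -1.47 and -1.33. For fzr they were -1.95, -1.83 and -1.90, with an SD of 0.06 that was the smallest of the 3 genes in the 3 groups. For Mos they were -1.65, -1.27 and -0.82, so the mean of the group was lowest for fzr and highest for Mos.

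All 3 genes were called lower in unfertilized eggs than in oocytes. They were chosen with earlier results of these arrays known, so these calls are no independent test. fzr fell by 1.89 on the log2 scale (SE 0.17, n = 3), a 3.72-fold lower level, with a limma adjusted p of 3.49e-06. mtrm fell by 1.67 (SE 0.20, n = 3), 3.19-fold, with a limma adjusted p of 4.48e-05. Mos fell by 1.25 (SE 0.19, n = 3), 2.37-fold, with a limma adjusted p of 4.26e-04. Of the 6782 genes tested, 10% were called lower. fzr stood at rank 61 from the lowest and mtrm at rank 86, and 3.18% of genes had a lower mean than Mos. The call for Mos was lost, with an adjusted p of 0.105, when all 11 arrays shared 1 estimate of the spread. fzr and mtrm stayed called there, at limma adjusted p of 0.0393 and 0.0290. Genes called lower then numbered 60 of 6782, against 678 in the fit of the unfertilized arrays alone.

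In wild-type embryos at 2 to 3 h the 3 genes differed in how evenly they lay below the median. fzr was at -1.66, -0.95, -1.10 and -0.66, below the median on all 4 arrays. mtrm was at 0.46 on replicate 1 and at -0.92, -0.71 and -0.69 on replicates 2 to 4. Mos was at 0.93 on replicate 1 and at -0.36, -0.60 and -0.25 on the others. For both mtrm and Mos, replicate 1 was the only array above the median. It is also the array with the low deposited median and the fewest measured spots, whose part in these values was not tested.

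None of the 3 was called in wild-type embryos against oocytes, where 0.822% of 6328 genes were called higher and 2.48% lower. At an unadjusted limma p under 0.05 there was 1 of the 3, fzr, beside 13.6% of all genes in either direction. The mean for fzr was -1.09 ± 0.42 (SD, n = 4), with a 95% interval of -1.93 to -0.25 and a limma adjusted p of 0.183. That call turned on the spread in other arrays of the fit, since the adjusted p was 0.0188 without smg replicate 3. fzr was also called, at a limma adjusted p of 0.0410, with earlier and later slides (by the numbers in the titles) as a block. The mean for mtrm was -0.46 ± 0.63 (SD, n = 4), with a limma adjusted p of 0.591, and -0.77 without replicate 1, with an adjusted p of 0.286. The mean for Mos was -0.07 ± 0.68 (SD, n = 4), and -0.40 without replicate 1, with limma adjusted p of 0.982 and 0.860.

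**Figure D1:**
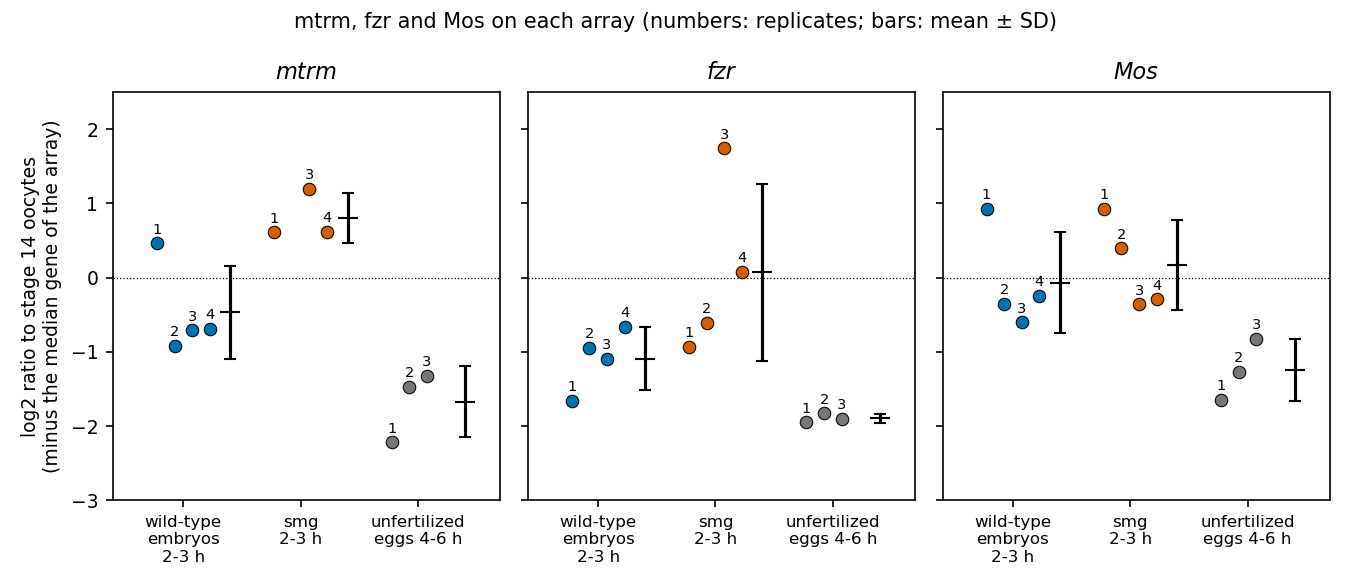
Log2 ratio to stage 14 oocytes, minus the median gene of the array, for mtrm, fzr and Mos on each array (points, numbered by replicate) with the group mean ± SD (bars). All 3 genes are lowest in unfertilized eggs, where fzr lies between -1.95 and -1.83, and wild-type embryo replicate 1 stands above the other 3 wild-type arrays for mtrm and Mos.

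In smg material mtrm lay above the median wherever it was measured, at 0.61, 1.19 and 0.61 on replicates 1, 3 and 4. It had no value on replicate 2, and the value on replicate 3 rested on 1 spot. By the slide numbers in the titles alone, replicates 1 and 2 were taken as earlier slides and replicates 3 and 4 as later ones. fzr was at -0.93, -0.60, 1.74 and 0.08, below the median on the earlier slides and above it on the later ones. Mos ran the other way, at 0.93 and 0.39 on the earlier slides and at -0.36 and -0.29 on the later ones. The value of Mos on replicate 3 also rested on 1 spot.

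Against oocytes none of the 3 was called in smg, where 0.0164% of 6112 genes were called higher. At an unadjusted limma p under 0.05 there was again 1, mtrm, beside 10.4% of all genes. It had a mean of 0.80 ± 0.34 (SD, n = 3) and a limma adjusted p of 0.449. fzr had a mean of 0.07 ± 1.19 (SD, n = 4), a standard deviation larger than its distance from wild-type embryos. Mos had a mean of 0.17 ± 0.61 (SD, n = 4), and its limma adjusted p was 0.889 against 0.975 for fzr. When replicate 3 was given the opposite sign the means became 0.01 ± 1.04 for mtrm, -0.80 ± 0.75 for fzr and 0.35 ± 0.50 for Mos.

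smg material and wild-type embryos share age, dyes and labelling, and comparing them asks which transcripts are at another level when smg is mutant. mtrm was higher in each of the 3 smg arrays that measured it (lowest 0.61) than in all 4 wild-type arrays (highest 0.46). This lack of overlap was seen for mtrm alone among the 3 genes and for 5.66% of 5791 genes tested. The difference was 1.27 (SE 0.45, 95% interval 0.29 to 2.25), with a limma p of 0.0158 and an adjusted p of 0.312, and was not called. An unadjusted p under 0.05 was found for 10.1% of genes. fzr differed by 1.16 (SE 0.54, 95% interval -0.01 to 2.34, limma adjusted p of 0.502) and Mos by 0.24 (SE 0.45, 95% interval -0.74 to 1.22, limma adjusted p of 0.978). In all 11 genes, 0.190%, were called higher in smg, a count that ran from 0 to 808 over the alternatives.

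The differences for mtrm and fzr were positive in both slide sets, but of unequal size. mtrm differed by 0.84 in the earlier set, with 1 smg array, and by 1.60 in the later set. fzr differed by 0.54 in the earlier set and by 1.79 in the later set, which holds smg replicate 3. Mos differed by 0.38 and 0.10. The sets hold too few arrays for a test of each. These differences were not computed with smg replicate 3 at the opposite sign.

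These values moved with smg replicate 3 and with the choice of centre. When smg replicate 3 was given the opposite sign the difference from wild-type embryos was 0.47 for mtrm, 0.29 for fzr and 0.42 for Mos, and mtrm then overlapped with wild type because its turned value was -1.19. Without that array fzr differed by 0.61 and mtrm by 1.08. Centring on the 3324 genes measured on all 11 arrays lowered the values of smg replicate 3 by 0.89 and of smg replicate 4 by 0.46, and gave 0.72 for mtrm, 0.78 for fzr and -0.15 for Mos. The median over all genes was itself 0.17 in this comparison with the first centring, and -0.26 with the second. The second centring also put mtrm on smg replicates 3 and 4 below wild-type embryo replicate 1, so the groups overlapped. As deposited they overlapped too, with mtrm at -3.82 on smg replicate 1 and between -1.07 and -0.55 on wild-type embryo replicates 2 to 4.

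**Figure D2:**
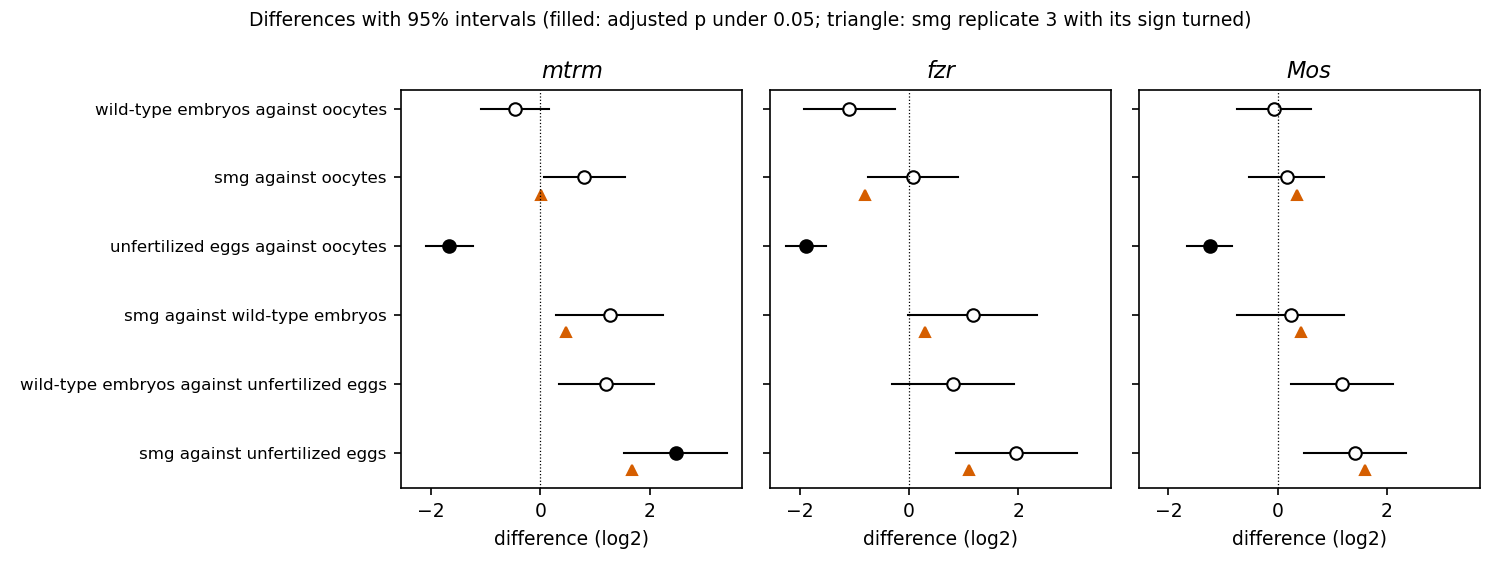
Differences in log2 ratio for mtrm, fzr and Mos in the 6 comparisons (points) with 95% intervals from limma (lines); filled points had an adjusted p under 0.05 and triangles give the value with smg replicate 3 at the opposite sign. The 3 genes are called in unfertilized eggs against oocytes, and mtrm alone in smg against unfertilized eggs.

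Wild-type embryos and unfertilized eggs differ in age, fertilization, dye orientation and labelling, and these cannot be told apart. All 3 genes were higher on every wild-type embryo array than on any unfertilized-egg array, as were 6.79% of the 6322 genes tested. The difference was 1.21 for mtrm (SE 0.41), 1.18 for Mos (SE 0.44) and 0.80 for fzr (SE 0.52). None was called, at limma adjusted p of 0.888, 0.990 and 0.999, and 0.301% of genes were called higher. Unadjusted limma p were under 0.05 for mtrm (0.0104) and Mos (0.0175), and for 3.24% of all genes. As deposited, with no centring, the values shrank to 0.24 for mtrm and 0.21 for Mos and turned to -0.17 for fzr, while the median over all genes moved to -0.61. All 3 genes then overlapped, since wild-type embryo replicate 1 lay below every unfertilized-egg array, at -3.55 (mtrm), -5.67 (fzr) and -3.08 (Mos).

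smg material and unfertilized eggs differ in these ways and in genotype. Again all 3 genes lay higher on every smg array that measured them than on any unfertilized-egg array, as did 9.97% of 6107 genes. With the opposite sign smg replicate 3 had values of -1.19 for mtrm, -1.74 for fzr and 0.36 for Mos, each still above the highest unfertilized-egg value. As deposited, with no centring, smg replicate 1 lay below every unfertilized-egg array for all 3 genes. mtrm was called higher, by 2.48 (SE 0.44, 95% interval 1.54 to 3.41), or 5.57-fold, with a limma adjusted p of 0.0410, where 0.295% of genes were called higher. fzr, at 1.97 (SE 0.52), and Mos, at 1.42 (SE 0.44), were not called, with limma adjusted p of 0.138 and 0.207. With slide sets as a block both were called, at limma adjusted p of 0.0110 and 0.0322, where 272 genes were called higher against 18 without it. With smg replicate 3 at the opposite sign and no block, fzr differed by 1.10 and Mos by 1.595. Neither was called, each at a limma adjusted p of 0.981. The mtrm call was lost when smg replicate 3 was given the opposite sign, where its difference was 1.68 and its limma adjusted p 0.981, and no gene was called. It was also lost without any 1 wild-type array (limma adjusted p 0.0685 to 0.0749), without smg replicate 4 (0.180) and without any 1 unfertilized array (0.192 to 0.224).

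With each array centred on its gene median, the group mean was lowest in unfertilized eggs, intermediate in wild-type embryos and highest in smg for each of the 3 genes. This order did not hold under every alternative, since Mos was lower in smg than in wild type by the other centring (-0.15) and without smg replicate 1 (-0.016), and fzr was lower in wild type than in unfertilized eggs as deposited (-0.17). Neighbours in this order did not pass the test for any of the 3. The ends of the order passed it for mtrm alone in the fit without a slide block. It was not tested whether the distance between the ends differs between the genes. Their place among the genes of each array does not depend on its scale. In unfertilized eggs between 0.611% and 3.51% of genes had a lower ratio than mtrm, between 0.949% and 1.03% a lower ratio than fzr, and between 1.71% and 10.1% a lower ratio than Mos. In wild-type embryos the share below fzr was 5.02% to 13.2%. For mtrm it was 10.6% to 13.5% on replicates 2 to 4 and 66.5% on replicate 1. For Mos it was 13.5% to 34.4% on replicates 2 to 4 and 83.2% on replicate 1. In smg the share ran from 68.9% to 76.9% for mtrm, from 17.5% to 84.0% for fzr and from 29.3% to 78.9% for Mos, a range that lay inside that of wild-type embryos for Mos. On smg replicate 3 with its sign turned the share was 23.9% for mtrm, 16.0% for fzr and 70.6% for Mos.

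**Figure D3:**
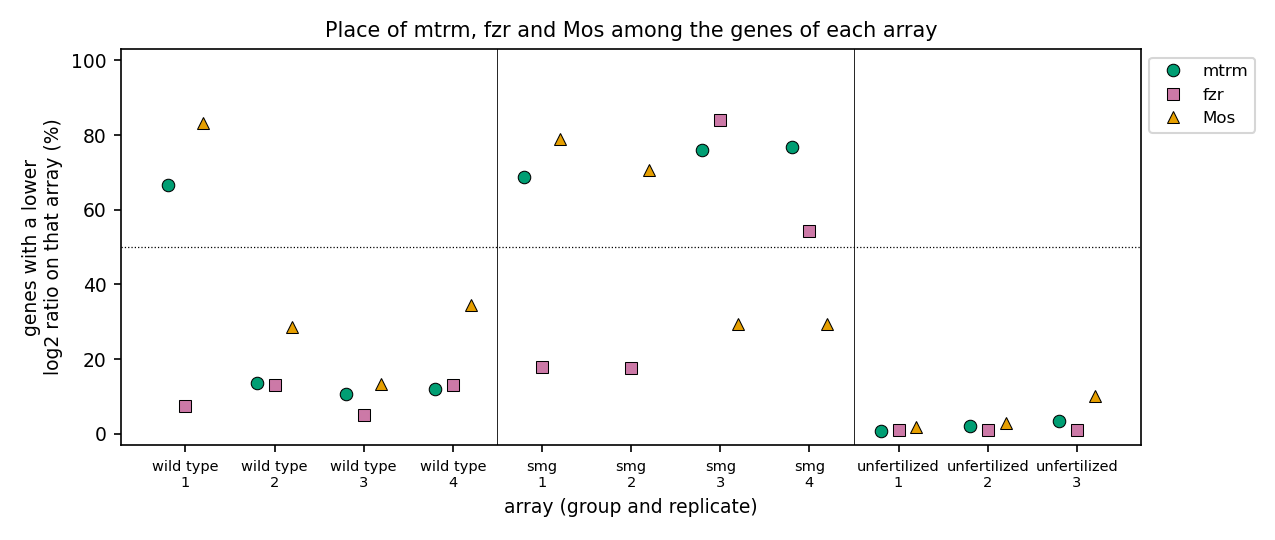
Share of the genes measured on each array that had a lower log2 ratio than mtrm (circles), fzr (squares) and Mos (triangles), for the 11 arrays. Every unfertilized-egg value is at or below 10.1%, and mtrm lies between 68.9% and 76.9% on the smg arrays that measured it, or at 23.9% on smg replicate 3 with its sign turned.

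The spots of a gene lay close together on most arrays. The median gap between the 2 spots was 0.19 for mtrm over 9 arrays, 0.28 for fzr over 11 and 0.14 for Mos over 10, where the median over all genes with 2 spots was 0.22. The largest gap for mtrm, 1.05, was on wild-type embryo replicate 2, where its spots read -0.40 and -1.45. The largest gap was 0.54 for fzr, and 0.75 for Mos on smg replicate 2.

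Genes of the same pathways were taken from 5 lists, which were drawn up with earlier results of these arrays known. The lists of Polo, of the APC/C and of Mos hold mtrm, fzr and Mos, which are counted in their totals and medians. Of 18 genes of the list of Polo, Cdk1 and their regulators 6 had spots. In unfertilized eggs all 6 lay below the median, as did 47.1% of all genes, and 3 were called lower, where 10% of all genes were. These were mtrm, Cdk2 (cyclin-dependent kinase of S phase), which fell by 2.07, and CycE, its cyclin partner, which fell by 1.06, with limma adjusted p of 1.83e-06 and 0.00197 for the last 2. The list's median was -0.75, beside 0.02 over all genes. In wild-type embryos all 6 were again below the median, at a list median of -0.70, and none was called by limma, with 3 at an unadjusted p under 0.05, beside 13.6% of all genes. CycB, the mitotic cyclin B, was at -0.93 (limma adjusted p 0.305) and Cdk2 at -1.48 (limma adjusted p 0.130).

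In smg against wild-type embryos the differences of all 6 of these genes were positive, with a median of 1.20 beside 0.17 over all genes, of which 63.9% were positive. None was called by limma, with 2 at an unadjusted p under 0.05, beside 10.1% of all genes. The difference was 1.42 for Cdk2 and 1.51 for CycB, at limma adjusted p of 0.499 and 0.327. With smg replicate 3 at the opposite sign 4 of the 6 were positive and the median was 0.48. In smg against unfertilized eggs mtrm was the only one of the 6 called, where 0.295% of all genes were called higher. All 6 were positive there, with a median of 1.07, beside 60.8% of all genes. With smg replicate 3 at the opposite sign none was called, 3 of the 6 were positive and the median was 0.048.

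Of 15 genes of the APC/C, its activators and partners, 10 had spots. In unfertilized eggs 4 of 10 were called lower, beside 10% of all genes. vih, the E2 enzyme that works with the APC/C, was at -2.09, fzr at -1.89, and the subunit genes APC7 and Cdc27 at -1.37 and -1.29, with limma adjusted p from 3.05e-06 to 3.58e-04. The other activators on the arrays were not called there. cort, the activator particular to the female germ line, was at -0.10 (limma adjusted p 0.781) and fzy, the fly Cdc20, which is named here after its value was seen, at 0.24 (limma adjusted p 0.488). In wild-type embryos 7 of these genes were tested, all 7 lay below the median at a list median of -0.66, and none was called by limma, with 3 at an unadjusted p under 0.05, beside 13.6% of all genes. In smg against wild-type embryos all 7 differences were positive, with a median of 1.16, where 63.9% of all genes were positive. None was called by limma, with 3 at an unadjusted p under 0.05, beside 10.1% of all genes. With smg replicate 3 at the opposite sign 5 of 7 were positive and the median was 0.56.

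Of 5 genes of the Mos and MAP kinase cascade only Mos and Dsor1, the MEK kinase that acts below it, had spots. Both were called lower in unfertilized eggs, Dsor1 by 1.13 with a limma adjusted p of 0.00180. In wild-type embryos Dsor1 was at -0.92 and Mos at -0.07, and in smg they were at -0.69 and 0.17 (-0.82 and 0.35 with smg replicate 3 turned), none of these called. The unadjusted limma p of Dsor1 was 0.00854 in wild-type embryos and 0.0369 in smg. Of all genes 13.6% and 10.4% had an unadjusted p under 0.05 in these comparisons.

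Of 13 genes of the PAN GU kinase, which triggers translation at egg activation, and of calcium signalling, 5 had spots and none was called in any of the 6 comparisons. png, the kinase subunit itself, was at -0.22 in unfertilized eggs, -0.57 in wild-type embryos and 0.83 in smg, with limma adjusted p of 0.600, 0.589 and 0.449. wisp, the poly(A) polymerase of the late oocyte, was at -0.40, -0.97 and 0.97, with limma adjusted p of 0.225, 0.495 and 0.544. With smg replicate 3 turned the smg means were 0.29 for png and -0.74 for wisp. At an unadjusted limma p under 0.05 there were 2 of the 5 in unfertilized eggs (CanB at -0.44 and plu at 0.47, named after their values were seen), png alone in smg against oocytes, and png and wisp in smg against wild-type embryos, with none in the other 3 comparisons. The share of all genes at this threshold was 23.7%, 10.4% and 10.1% in the 3 comparisons named.

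Of 33 genes of meiotic recombination and chromosome segregation 14 had spots. lok, the Chk2 checkpoint kinase, and nod, a kinesin-like protein that holds chromosomes without crossovers on the spindle, were called lower both in wild-type embryos and in unfertilized eggs. lok was at -2.07 and -2.05, with limma adjusted p of 0.0409 and 2.94e-06. nod was at -1.73 and -1.19, with limma adjusted p of 0.0286 and 7.49e-04. These 2 of 14 stand beside 2.48% and 10% of all genes called lower. The other 12 were not called in either, and the list's median was -0.07 in wild-type embryos and -0.06 in unfertilized eggs. The synaptonemal complex genes c(3)G and c(2)M were at 0.16 and -0.07 in unfertilized eggs.

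**Figure D4:**
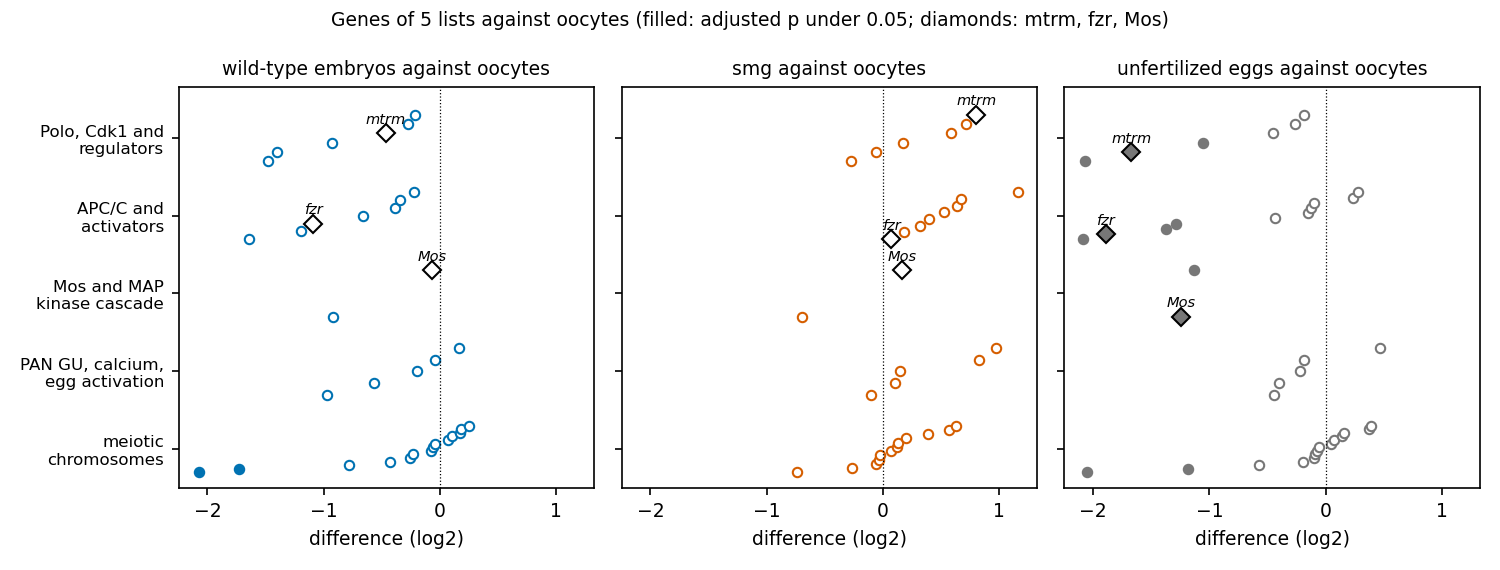
Differences from oocytes of the genes of 5 lists (1 point per gene, spread vertically within a list by rank) in wild-type embryos, smg and unfertilized eggs; filled points had a limma adjusted p under 0.05 and diamonds mark mtrm, fzr and Mos. In unfertilized eggs 3 of 6, 4 of 10, 2 of 2, 0 of 5 and 2 of 14 genes of the lists are called lower, beside 10% of all genes. These counts include mtrm, fzr and Mos.

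Likeness to each gene was measured as the root mean square difference of the centred values over the arrays, among genes measured on at least 10 arrays or, for mtrm, on every array with a value of it. This measure stays the same whichever sign smg replicate 3 carries. Nearest to fzr were Ice1, of the little elongation complex, at 0.27 over 10 arrays, and Cdk2 and mEFTs, a mitochondrial translation factor, at 0.39 and 0.41 over 11 arrays. The median over 2524 candidates was 1.35. Ice1 had group means of -1.22 in wild-type embryos, 0.07 in smg and -1.94 in unfertilized eggs beside -1.09, 0.07 and -1.89 for fzr. With smg replicate 3 turned the smg mean was -0.60 for Ice1 and -0.80 for fzr.

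Nearest to mtrm over 10 arrays were FAM21, of the WASH complex, at 0.50, Pfdn6, a prefoldin subunit, at 0.52, and SMC3, of cohesin, at 0.56, beside a median of 1.19 over 2328 candidates. Pfdn6 had a smg mean of -0.53, with a value of -2.48 on smg replicate 2, the array on which mtrm had no value. On smg replicates 1, 3 and 4 Pfdn6 was at -0.09, 0.82 and -0.39, each below mtrm. Nearest to Mos were Eogt, a glycosyltransferase, at 0.43, Grip128, of the gamma-tubulin ring complex, at 0.47, and Naa80, an N-terminal acetyltransferase, at 0.49, beside a median of 1.09. In unfertilized eggs the means of these 3 were -0.90, -0.55 and -0.48, each above the -1.25 of Mos.

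**Figure D5:**
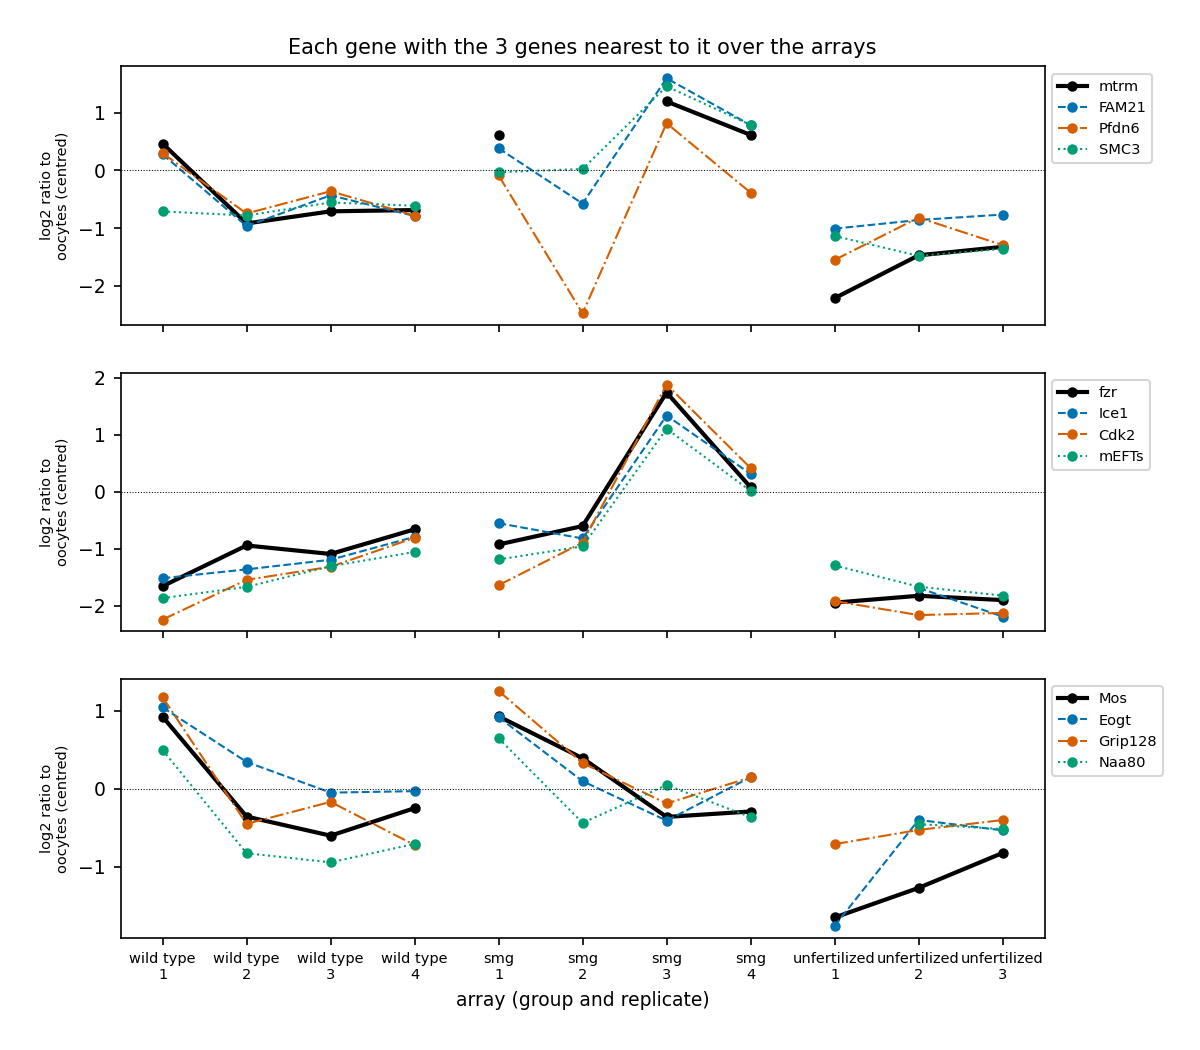
Centred log2 ratios of mtrm, fzr and Mos (thick black lines) and of the 3 genes with the smallest root mean square difference from each (thin lines) on the 11 arrays; lines join arrays of a group and stand for no order in time. fzr and its 3 nearest genes all lie highest on smg replicate 3 as deposited, where a turned sign would put fzr at -1.74 and Cdk2 at -1.88, and mtrm and Mos have no neighbour as near as Ice1 is to fzr.

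Markers of embryonic and maternal RNA differed between the groups, and the maternal ones also between the arrays of smg. Of 26 zygotic blastoderm genes 14 had spots. Their median per array was 1.21 to 1.71 in wild-type embryos, 0.50 to 0.97 in smg and -0.12 to 0.16 in unfertilized eggs. Of 13 tested, 10 were called higher in wild-type embryos than in oocytes, beside 0.822% of all genes. Not called there were gt, odd and tll, at 0.29, 0.56 and 0.0049. In unfertilized eggs 1 of 14, tll, was called higher, at 0.73 (limma adjusted p 0.0481), beside 67 of 6782 genes. The direction of the ratio was itself read in part from blastoderm transcripts in wild-type embryos, so the calls in wild-type embryos do not test it. Of 12 maternal germline transcripts 7 had spots. Their median per array was -2.58 to -1.72 in wild-type embryos and -1.26 to -1.09 in unfertilized eggs. In smg it was -0.87, -1.05, 1.08 and 0.20 on replicates 1 to 4, with replicates 3 and 4 high as for fzr. With its sign turned smg replicate 3 would stand at -1.08 for these transcripts and at -0.74 for the blastoderm genes. The part of these shifts in the values of mtrm, fzr and Mos was not tested.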

How the data were processed

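Per the design text, RNA was reverse transcribed with random primers, labelled and hybridised to spotted arrays, scanned, quantified in QuantArray 3, and normalized by rank-invariant LOWESS in GeneTraffic Duo 3.2. The deposited values are 1 normalized log2 ratio per spot and array, with base 2 read from their range. The sources used here do not say how background was corrected or how spots were filtered.

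Of 27648 spots 15116 carried a single gene in the platform's probe table, 102 carried several and 12430 were not listed. Spots were averaged to 6793 genes, of which 6692 matched the reference annotation (Release 6 plus ISO1 MT, from which only names were taken), and each array was centred on its gene median. The 3 genes and the lists were chosen with earlier results of these data known.

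The limma package (3.58.1, under R 4.3.3) gave two-sided moderated tests from lmFit and eBayes, with Benjamini-Hochberg adjustment over all genes tested and a threshold of 0.05. A gene was tested with values on at least 3 of 4 arrays, or 2 of 3 for unfertilized eggs. The 8 arrays at 2 to 3 h shared a fit, unfertilized eggs were fitted alone against oocytes, and all 11 arrays entered the comparisons between these sets. Group means were tested against 0 where oocytes are the comparison. The code was tested on simulated data. The number of arrays limits the precision.

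Named genes were mtrm, fzr and Mos, up to 4 called members of each list per comparison by size (with fewer than 2 called, the 2 members with values on the most arrays), and the 3 genes most alike to each of mtrm, fzr and Mos among genes with more than a CG or CR identifier for a symbol. Earlier and later slide sets were read from the slide numbers in the titles. Alternatives were other centrings, the sign of smg replicate 3, slide sets as a block, the arrays that share a fit, the median of spots, complete genes, array weights, and each array left out. Scaling all arrays to a common spread was added after the data were seen.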

Additional observations from a re-analysis of the deposited data

Results flagged for a closer look

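A test for a single sample far from the rest of its group was applied to 49 groups of 4 arrays over the 25 named genes. It picked out 3 samples. Chance alone picks out about 1 group in 20. Wild-type embryo replicate 1 stood apart for mtrm, at 0.46 where the other 3 arrays lay between -0.92 and -0.69, and its gap was 0.832 of the group's range. The same array stood apart for Naa80, one of the genes most alike to Mos, at 0.50 (gap 0.836 of the range). Naa80 was named for its likeness to Mos on these arrays, and Mos was itself at 0.93 there. This sample is therefore no independent pick. smg replicate 2 stood apart for the PAN GU kinase gene png, at 0.0017 where the other 3 lay between 1.07 and 1.12 (gap 0.955 of the range). The changes from oocytes of mtrm differed between smg material and unfertilized eggs, with a difference of 2.48 by limma, which depends on the arrays used as given with the comparison.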

How the results depend on the processing

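Over 18 results (3 genes in 6 comparisons) 310 alternative values were computed, of which 264 kept their direction and their side of the threshold. Some alternatives could change only the spread and not the value. Leaving out smg replicate 1, for example, kept mtrm in wild-type embryos at -0.46. Most of the 18 results were not called to begin with, so for them an unchanged result is one that stayed uncalled. For unfertilized eggs against oocytes mtrm and fzr were called under all 9 alternatives and Mos under 8 of 9, with Mos not called (-1.25, adjusted p 0.105) when the other arrays shared the spread. No paired analysis was run because replicate numbers were given in accession order and name no pairs. The sign of uncalled values turned in 16 cases. As deposited, values in smg against oocytes were -0.63 (mtrm), -1.04 (fzr) and -0.94 (Mos), fzr was at -0.17 in wild-type embryos against unfertilized eggs, and mtrm was at 1.07 and no longer called in smg against unfertilized eggs. With centring on genes measured on all arrays Mos was at 0.063 in wild-type embryos, -0.086 in smg and -0.15 between them, fzr was at -0.18 in smg, and mtrm was at 1.92 and not called in smg against unfertilized eggs. With the sign of smg replicate 3 turned fzr was at -0.80 in smg, and mtrm at 1.68 and not called against unfertilized eggs. With slide sets as a block fzr was called in wild-type embryos (-1.09), and fzr (1.97) and Mos (1.42) were called in smg against unfertilized eggs. In a fit of the 7 smg and unfertilized arrays alone mtrm stayed at 2.48 with an adjusted p of 0.248.

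Array weights gave weights that had not converged, from 0.25 to 14.3 in the fit of 8 arrays. They called mtrm (-0.70), fzr (-1.06) and Mos (-0.51) in wild-type embryos, mtrm (1.36) and fzr (1.10) in smg against wild-type embryos, and mtrm (1.01), fzr (0.85) and Mos (0.86) in wild-type embryos against unfertilized eggs, and put Mos at -0.099 in smg. Leaving out the 2 arrays with low deposited medians put Mos at -0.085 in smg and called fzr in smg against unfertilized eggs (2.30). Scaling the arrays to a common spread called fzr in wild-type embryos (-1.12) and fzr (2.75) and Mos (1.92) in smg against unfertilized eggs. With 1 array left out at a time, values in wild-type embryos ran from -0.40 to 0.11 for Mos and from -1.23 to -0.90 for fzr (called without smg replicate 3). In smg they ran from -0.49 to 0.40 for fzr and from -0.085 to 0.34 for Mos. They ran from -0.016 to 0.57 for Mos in smg against wild-type embryos. In smg against unfertilized eggs they ran from 2.20 to 2.65 for mtrm, called in 3 of 11, and from 1.41 to 2.30 for fzr, called without smg replicate 1 (2.30). The cause of these changes was not tested.

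The call counts over all genes moved too. Genes called higher and lower in wild-type embryos numbered 52 and 157, and 0 and 0 as deposited, 972 and 1469 with array weights, 99 and 429 with the slide block and 122 and 462 with a common spread. In smg against unfertilized eggs 18 were called higher, and 272 with the slide block, 351 with a common spread and 0 with smg replicate 3 at the opposite sign. In smg against wild-type embryos 11 were called higher, and 214 with the slide block, 128 with a common spread, 808 with array weights, 188 without smg replicate 1 and 0 as deposited or with smg replicate 3 at the opposite sign. Array weights were not run for unfertilized eggs against oocytes. Complete genes gave no value for mtrm in fits with smg arrays, since it was missing on smg replicate 2, and each gene's 1 pair of spots gave no separate value.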
